A study of Homo sapiens with 42 samples.

Results

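Interferon-stimulated genes (ISGs) are the genes that cells switch on after type I or type III interferon binds its receptors. Receptor-bound JAK1 and TYK2 phosphorylate STAT proteins, STAT2 among them, which join IRF9 in the complex ISGF3, and this complex binds the interferon-stimulated response element (ISRE) in front of its target genes. Their products sense viral RNA, degrade it, block translation or entry of virus, or tag proteins with ISG15, and in myeloid cells a low level of many of them is kept without infection. The list examined here had 43 members, chosen by name among the 57353 gene names of the count table, and each member matched 1 row. A mean of at least 1 CPM (counts scaled to the library total) over all libraries was reached by 29 of the 43, against 12939 of all names, and these 29 entered the tests.

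All RNA came from 1 cell line, MOLM-13, derived from acute myeloid leukemia, and so every group carries its internal tandem duplication of the receptor kinase FLT3 (FLT3-ITD). Cultures were kept for 12 hours in RPMI with vehicle, with 3 nM of the FLT3 inhibitor quizartinib, or with quizartinib plus 10 nM of the mTORC1 inhibitor everolimus (combo). In hBMSC-CM, RPMI mixed with medium in which the human stromal line HS-5 had grown, they received vehicle, quizartinib, everolimus or combo. Each of the 7 conditions had 3 cultures, and from each culture poly(A) RNA was sequenced from the whole lysate (input) and from heavy polysomes, messages that carry several ribosomes, which gave 42 libraries in 14 groups. No group received interferon. RPMI with everolimus but no quizartinib was not analysed here.

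Library totals ran from 19.4 to 38.8 megacounts. Leukemia markers summed to 1363 to 2333 CPM in the input libraries, and each of the 12 was counted in every condition. Markers of stromal cells, the source of the conditioned medium, summed to at most 41.7 CPM in input, and COL3A1, LUM, THY1 and POSTN held no count there. The stromal sum moved with quizartinib, from 0.909 to 4.83 CPM in RPMI vehicle to 9.81 to 41.7 CPM in RPMI quizartinib. COL1A1 alone reached 38.8 CPM in input, while no other stromal marker went over 1.995 CPM. The part of this rise in the results below was not tested. Markers of plasmacytoid dendritic cells, strong makers of interferon, summed to 45.5 to 74.4 CPM in RPMI vehicle and 121 to 180 CPM in RPMI quizartinib, mostly as IL3RA, while the defining markers CLEC4C and LILRA4 stayed at or under 0.405 and 0.536 CPM. Erythroid markers summed to at most 0.169 CPM in input, and a list of T, B and NK cell markers to 87.9 to 253 CPM, nearly all of it NKG7 and NCAM1, with CD3E at or under 0.0807 CPM. In bulk RNA fewer cells that use a gene and less of its RNA per cell cannot be told apart. Levels are relative to the other RNA of a library, as no spike-in was used here. Nothing in the labels says how far apart in origin the 3 cultures of a group were. The p-values rest on a spread between cultures that 1 fit estimated from all 14 groups, input and polysome together.

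The genes lie in clusters. IFIT2, IFIT3, IFIT1 and IFIT5 follow each other on chromosome 10, OAS1, OAS3 and OAS2 on chromosome 12, IFITM2, IFITM1 and IFITM3 on chromosome 11, MX2 and MX1 on chromosome 21, SAMD9 and SAMD9L on chromosome 7, HERC6 and HERC5 on chromosome 4, and IFI44L and IFI44 on chromosome 1. PARP9 and DTX3L on chromosome 3 overlap at their starts and run in opposite directions, as do RSAD2 and CMPK2 on chromosome 2. Whether strand was used in the counting is not given in the sources used here, and reads in such overlaps cannot be told apart. The IFITM genes and the SAMD9 pair are close copies of each other, and the handling of reads that match both is not known here.

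Promoter windows of 300 bases (from 250 bases before the annotated start to 50 after it, RefSeq, GRCh38.p14) were found for 35 members. They were searched on both strands for the ISRE core (GAAA, any 2 bases, GAAA) and for the gamma-activated sequence TTCNNNGAA, a site of STAT pairs. The ISRE core was present in 25 of the 35, against 4.376% of 27305 genes in the same table. The gamma-activated sequence was present in 12 of the 35, against 9.376% of genes. A match is a description of the letters and not a shown binding site. The following windows of 30 bases hold the ISRE core in capitals. The first 4 are from members called in input RNA (below), and the PARP9 site is shared with DTX3L, which was not called.
ISG20, chr15:88638937-88638966, plus strand: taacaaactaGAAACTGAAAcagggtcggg
SAMD9, chr7:93118096-93118125, minus strand: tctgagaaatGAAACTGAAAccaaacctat
PARP9 and DTX3L, chr3:122564322-122564351, plus strand: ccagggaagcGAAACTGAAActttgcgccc
PLSCR1, chr3:146544667-146544696, minus strand: cgggaaccggGAAAAGGAAAccgtgttgtg
The next 3 belong to classical ISGs that stayed under the expression limit, and were chosen for print after their values were seen.
IFIT1, chr10:89392510-89392539, minus strand: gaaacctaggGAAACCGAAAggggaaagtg
RSAD2, chr2:6877622-6877651, minus strand: ttccacatgtGAAACTGAAAgttgaaacag
IFI44, chr1:78649761-78649790, minus strand: tcagagaaagGAAACTGAAActcagtgtgc
The core in ISG20 starts 69 bases before the transcription start (position -69), in SAMD9 at position -136 and in PLSCR1 at position -79. Of the members under the expression limit 12 of 14 held a core. Among the 10 members in the table that rose with quizartinib in either medium, it was found in 4, and among the 11 that were tested and not called, in 9.

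The members differed widely in level. Levels were divided by the length of all annotated exons of a gene merged, which can exceed the length of 1 message. Per kilobase of exon, the highest mean input levels belonged to BST2 (tetherin, which holds budding virus at the cell surface) at 117 CPM per kb, IFITM2 (which blocks fusion of virus with endosomes) at 67.2, ISG15 (a ubiquitin-like protein) at 30.9, IFI6 at 17.2, IRF7 at 15.7 and STAT2 at 12.9 CPM per kb. The sensor genes IFIH1 (MDA5) and DDX58 (RIG-I) stood at 2.52 and 1.13 CPM per kb. At the lower end of the tested members were DDX60 at 0.172, OAS2 at 0.16 and OASL at 0.116 CPM per kb. The order depends on the merged length. TRIM22, with a mean input of 72.9 CPM, stood at 5.81 CPM per kb, with 12556 bases of merged exons and 1494 coding bases.

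The 14 members under the limit included many of the most used interferon reporters: IFIT1, IFIT3, IFIT5, MX1, RSAD2, CMPK2, OAS3, IFITM1, IFI27, IFI44, IFI44L, EPSTI1, LGALS3BP and IRF9. Their mean over the 42 libraries ran from 0.0303 CPM for OAS3 to 0.85 CPM for IRF9, the DNA-binding part of ISGF3. The nearest members on either side of the limit were MX1 (0.666 CPM) and IRF9 below it and IFIT2 (1.16 CPM) and OASL (1.35 CPM) above it. No group mean of these 14 went over 1.65 CPM (LGALS3BP, hBMSC-CM everolimus polysome). Even so some varied with treatment. RSAD2 (viperin, an antiviral enzyme) had 2, 0 and 0 counts in the 3 RPMI vehicle inputs, and 23, 46 and 21 counts in the RPMI quizartinib inputs, with no overlap. IFIT1 had 3, 6 and 5 counts under vehicle and 67, 30 and 0 under quizartinib in RPMI, so these groups overlapped. When the limit was dropped, RSAD2 and IFI27 passed the test for quizartinib in RPMI input, with 8, 5 and 16 counts of IFI27 against 0 in all 3 vehicle inputs, and the other 12 did not.

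The interferon genes themselves were nearly silent. IFNB1, IFNG and IFNE held 0 counts in all 42 libraries, which allows up to 3 counts in a library, and IFNL1 held at most 3. The receptor chains and kinases were present in every input library: IFNAR1 at 28.5 to 47.7 CPM, IFNAR2 at 30.7 to 59.2 CPM, JAK1 at 38.5 to 144 CPM and TYK2 at 169 to 337 CPM.

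Inhibition of FLT3 was compared with vehicle in RPMI first. Of the 29 members 12 rose in input RNA and 0 fell, where 34.6% of all genes tested were called, with 16.6% of all genes up and 18% down (adjusted p under 0.05, quasi-likelihood test of edgeR). The 12 include IFIT2, which reached the expression limit through the groups that were high. The median log2 change of the 29 was 1.12, against 0.08 over all genes, and 26 had a positive sign. The groups did not overlap for 19 members that were higher and 1 that was lower, where 28.5% and 27.2% of all genes were so. With the replicate number as a block, which pairs these cultures, 16 members rose, with IFIH1, OAS2, IFI6 and IFI35 added to the 12. A fit to the libraries of the compared groups alone called 20.

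All 3 transcription factors that could be tested rose. STAT2 measured 31.1, 48 and 50.1 CPM in the RPMI vehicle inputs and 130, 176 and 175 CPM in the quizartinib inputs. Every treated culture lay above every control culture, and the log2 change was 1.90 (SE 0.25, edgeR adjusted p 3.16e-07). IRF7, the factor that amplifies interferon transcription, measured 9.19, 15.1 and 14.8 CPM under vehicle and 41.9, 58.2 and 79 CPM under quizartinib. Its log2 change was 2.20 (SE 0.28, edgeR adjusted p 1.1e-07). IRF1, which interferon gamma induces, rose less, by 0.52 (SE 0.16, edgeR adjusted p 0.00919). IRF9 stayed under the expression limit, so 1 part of ISGF3 had few counts while another was among the most abundant members. IRF9 shares exon positions with other annotated genes on both strands, and the part of that in its low count was not tested.

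The antiviral enzymes held the largest change. ISG20, an exonuclease that degrades RNA, measured 1.59, 1.55 and 0.472 CPM in the vehicle inputs and 15.2, 19.1 and 23.9 CPM in the quizartinib inputs. The groups lay far apart, and the log2 change was 3.99 (SE 0.60, edgeR adjusted p 2e-06). All 4 members of this group that could be tested rose. SAMD9L, an antiviral protein encoded in a part of chromosome 7 that is lost in some myeloid leukemias, went from 1.64, 2.95 and 2.16 to 16, 13 and 14.7 CPM, a log2 change of 2.69 (SE 0.58, edgeR adjusted p 0.000392). Its neighbour SAMD9, at the highest input level of the group, went from 17, 15.8 and 11.2 to 43.1, 34.7 and 25.5 CPM, a log2 change of 1.23. MX2, a GTPase that binds the capsid of retroviruses, rose by 1.36.

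Among the IFIT and OAS proteins each family had 1 member called. IFIT2 reached the expression limit through the groups that were high: its group mean was at least 1.38 CPM in RPMI quizartinib, RPMI combo and hBMSC-CM combo input and at most 0.657 CPM in the others, so its call gives no support to a count over members. IFIT2, which binds viral RNA, measured 0.227, 0.63 and 0.236 CPM under vehicle and 3.5, 4.32 and 2.72 CPM under quizartinib, a log2 change of 3.25 (SE 0.72, edgeR adjusted p 0.000493). OAS1, which makes the 2-5A signal for RNase L, measured 1.31, 4.07 and 1.86 CPM and then 14.2, 16 and 10.7 CPM, a log2 change of 2.5 (SE 0.39, edgeR adjusted p 3.54e-06). OAS2 and OASL had changes of 1.55 and 1.35 with larger errors (SE 0.66 and 0.80) and did not pass. Both called genes share exon positions with a gene on the opposite strand, LIPA in the case of IFIT2.

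Of the RNA sensors DDX58 rose. It went from 4.96, 5.73 and 5.74 to 17.2, 18 and 17 CPM, a log2 change of 1.67 (SE 0.31, edgeR adjusted p 6.27e-05), and the groups did not overlap. IFIH1 went from 8.06, 7.82 and 8.47 to 16.5, 14.4 and 14.7 CPM without overlap, but did not pass (log2 change 0.91, SE 0.38, edgeR adjusted p 0.0633).

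Of the 8 ISG15, ubiquitin and ADP-ribose genes 2 rose, PARP9 and HERC6. ISG15 itself measured 17.9, 24.4 and 24.9 CPM under vehicle and 24.4, 26.8 and 35.2 CPM under quizartinib, with overlap. USP18, the protease that removes ISG15 and also damps receptor signalling, had a log2 change of -0.66 (SE 0.44, edgeR adjusted p 0.26), with the treated cultures all below the controls. HERC5, the ligase for ISG15, had a change of -0.05. PARP9, which marks proteins with ADP-ribose together with its partner DTX3L, rose by 1.27 (SE 0.26, edgeR adjusted p 0.000242), from 4.38, 3.81 and 3.85 to 8.81, 10.4 and 9.9 CPM. HERC6 rose by 1.15, a call that was lost when any 1 of 4 cultures was left out (RPMI quizartinib replicates 1 and 3, RPMI vehicle replicates 1 and 3). TRIM22, the most abundant of them, measured 50, 90.7 and 60.2 CPM and then 68.6, 95.3 and 71.6 CPM, and each group had its high value in replicate 2.

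None of the 4 membrane proteins that were tested was called. With the replicate block within each fraction BST2 was lower (-0.41, edgeR adjusted p 0.0171) and IFITM2 higher (0.42, edgeR adjusted p 0.0438). BST2 measured 122, 134 and 166 CPM under vehicle and 101, 94.6 and 122 CPM under quizartinib, so the groups met at 122 CPM, and its log2 change was -0.41 (SE 0.23, edgeR adjusted p 0.16). XAF1, a promoter of apoptosis and the most abundant of the remaining members, went from 34.6, 39.8 and 43.1 to 49.2, 53.5 and 58.5 CPM without overlap, and did not pass (log2 change 0.46, SE 0.49, edgeR adjusted p 0.505).

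**Figure D1:**
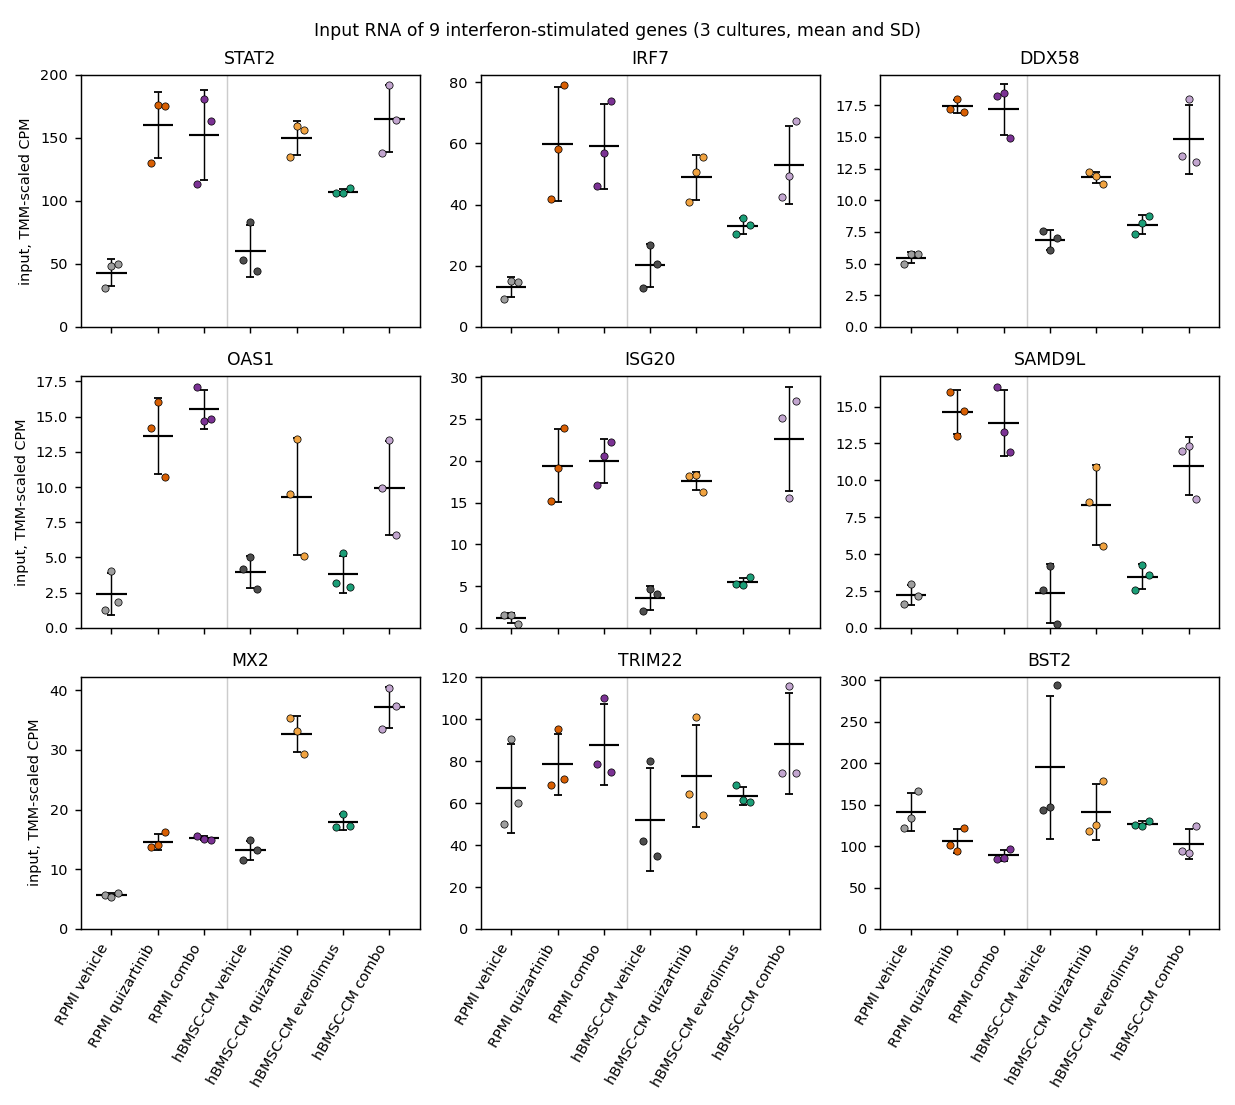
Input RNA of 9 members in TMM-scaled CPM on linear axes from 0, by condition. Points are the 3 cultures, bars the mean and SD. STAT2, IRF7, DDX58, OAS1, ISG20 and SAMD9L stand higher with quizartinib or combo than with vehicle in RPMI, and MX2 stands higher there with quizartinib. With quizartinib in hBMSC-CM all of these but DDX58 were called higher. Without drug MX2 is higher in hBMSC-CM than in RPMI. TRIM22 and BST2 overlap between vehicle and quizartinib.

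In hBMSC-CM the same inhibitor raised 8 members and lowered 0, where 12.3% of all genes were called, 5.46% higher and 6.84% lower. The median log2 change was 0.70, against 0.01 over all genes. The groups did not overlap for 14 members that were higher and 0 that were lower, where 16.9% and 17.2% of all genes were so. STAT2 rose by 1.31 (SE 0.25, edgeR adjusted p 0.000641), from 53.2, 83.5 and 44.7 to 135, 159 and 156 CPM. IRF7 went from 12.7, 26.8 and 20.7 to 40.9, 50.5 and 55.4 CPM, a rise of 1.28 (SE 0.27, edgeR adjusted p 0.00168). ISG20 again had the largest rise, 2.29 (SE 0.55, edgeR adjusted p 0.00482), from 2.04, 4.68 and 4.09 to 18.2, 18.3 and 16.3 CPM. SAMD9L (1.83, SE 0.56, edgeR adjusted p 0.0294) had 1 control culture at 0.236 CPM while the other two stood at 2.59 and 4.23 CPM. MX2 rose by 1.30, OAS1 by 1.23, PARP9 by 0.87 and PLSCR1 by 0.70.

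With the replicate block, which pairs these cultures, IFI35 (edgeR adjusted p 0.0431) and SAMD9 (edgeR adjusted p 0.012) were added, 10 in all. With the block within each fraction 13 rose and BST2 fell (-0.44, edgeR adjusted p 0.0183). The hBMSC-CM count ran from 4 to 9 as each culture was left out, with 4 members without hBMSC-CM quizartinib replicate 1, 5 without its replicate 2 and 4 without hBMSC-CM vehicle replicate 3. STAT2, IRF7, MX2 and ISG20 were called in every one of these fits.

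Of the 12 members called in RPMI, 7 (58.3%) were called in hBMSC-CM too, and these made up 87.5% of the 8 there. IFIT2 is among the 12 and not among the 8. For comparison, 32.9% of all genes called in RPMI were called in both. PLSCR1, a membrane protein that shuffles phospholipids, was called only in hBMSC-CM, and the interaction had a negative sign, a smaller value in hBMSC-CM, for 23 of the 29 members tested. The median interaction was -0.244 over members and -0.0371 over all genes, and the share of all genes with a negative sign was not counted. The difference between the media was tested as an interaction, and 0 members passed, where 1.96% of all genes did. At an unadjusted p under 0.05 there were 5: IFIT2, OAS1, IRF7, ISG20 and DDX58, each with a smaller value in hBMSC-CM, while 1293 of the 12939 genes were under that p. The largest was IFIT2, with a difference of -3.5 (SE 0.99, edgeR adjusted p 0.0546). It reached the expression limit through groups that include RPMI quizartinib, so this value gives no support to a difference over members. Once the replicate number was a block, IFIT2 (-3.63, adjusted p 0.0224 by edgeR) and OAS1 (-1.34, edgeR adjusted p 0.0362) passed, limma voom and DESeq2 called 1 member each, and so did the fits that left out replicate 2 of hBMSC-CM quizartinib, replicate 1 of hBMSC-CM vehicle or replicate 2 of RPMI vehicle.

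**Figure D2:**
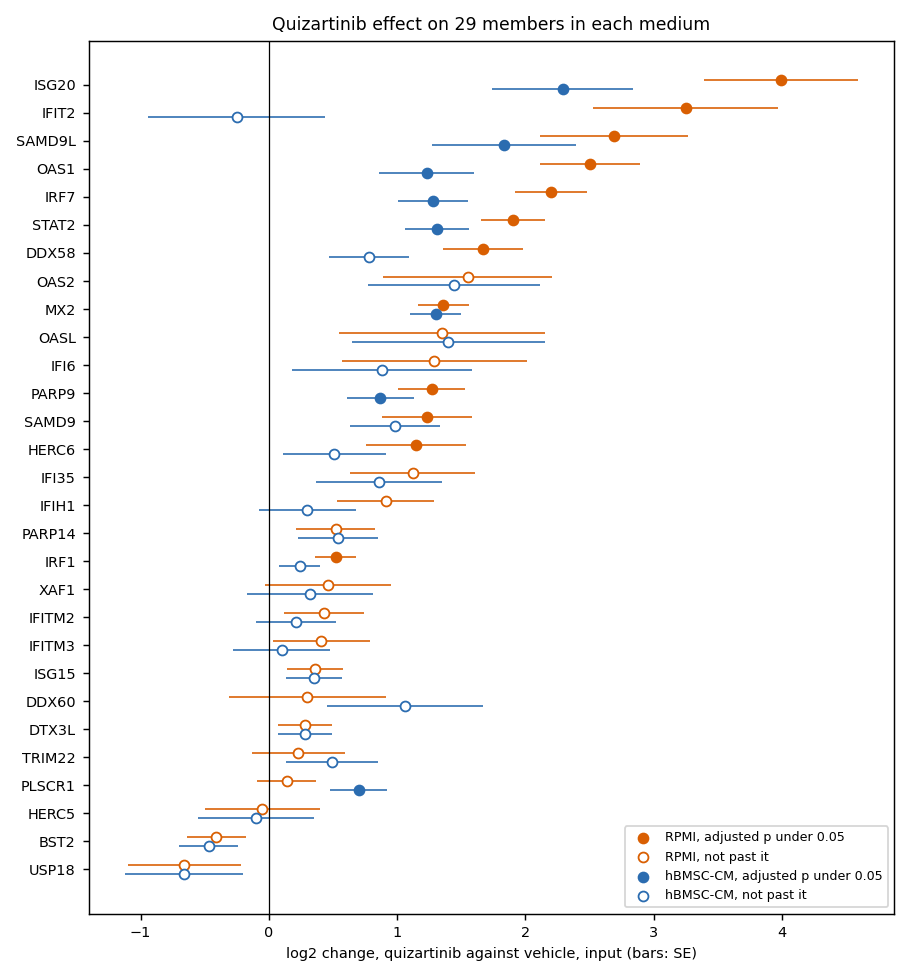
Log2 change of quizartinib against vehicle in input for the 29 tested members, with SE, in RPMI (orange) and hBMSC-CM (blue). Filled points have an edgeR adjusted p under 0.05, 12 in RPMI and 8 in hBMSC-CM. IFIT2 is at 3.25 in RPMI and -0.25 in hBMSC-CM.

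Upstream of the members, 23 of 31 genes of a list of interferon signalling could be tested, and in RPMI 8 rose and 2 fell with quizartinib, where 34.6% of all genes were called. JAK1 rose by 1.13 (edgeR adjusted p 0.000604) and TYK2 by 0.77 (edgeR adjusted p 0.0131). IRF8 and CGAS fell, by 0.64 and 0.85. IFNAR1 and IFNAR2 changed by 0.35 and 0.38 and did not pass, and neither did the feedback inhibitors SOCS1 (0.51) and SOCS3 (0.50). In hBMSC-CM, where 12.3% of all genes were called, 6 of the 23 rose and 0 fell, SOCS1 (0.94) and SOCS3 (1.40) among them.

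A list of 35 further interferon-induced genes that are no members had 28 that could be tested. In RPMI 13 rose and 4 fell with quizartinib, where 16.6% of all genes rose and 18% fell, and the median log2 change was 0.52. The largest rises were DHX58 (LGP2, the regulator of the RNA sensors) at 2.34 and GBP2 at 2.23, with edgeR adjusted p of 0.000103 and 0.000254. PNPT1, a mitochondrial RNA exonuclease, fell by 2.05. In hBMSC-CM 6 rose and 2 fell, where 5.46% and 6.84% of all genes did.

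The conditioned medium without drug changed few members past the threshold. Its median log2 change over the 29 was 0.48, against -0.00522 over all genes, and 22 of the 29 had a positive sign. It raised 3 members and lowered 0, where 1.51% of all genes were called (1.3% higher and 0.209% lower), and the groups did not overlap for 9 higher and 1 lower, where 7.97% and 8.16% of all genes were so. PLSCR1 measured 7.93, 8.39 and 6.38 CPM in RPMI and 21.1, 27.4 and 13.1 CPM in hBMSC-CM, a log2 change of 1.44 (SE 0.23, edgeR adjusted p 0.000141). PARP9 measured 4.38, 3.81 and 3.85 and then 10.7, 10.9 and 8.25 CPM, a rise of 1.31 (SE 0.26, edgeR adjusted p 0.00305). MX2 measured 5.69, 5.33 and 6.04 and then 11.6, 14.9 and 13.2 CPM, a rise of 1.22 (SE 0.20, edgeR adjusted p 0.000251). The cultures of the media lay apart for each of these 3. DTX3L, which shares its start region and the printed ISRE core with PARP9, had a log2 change of 0.51 (SE 0.21, edgeR adjusted p 0.438), from 12.1, 14.3 and 12.9 to 21.3, 18.8 and 15.9 CPM. In the upstream list SOCS3 rose by 4.07 and IRF8 fell by 0.93, and none of the 28 further interferon-induced genes was called. With the replicate block IRF1 passed too (0.50, edgeR adjusted p 0.0486).

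Under quizartinib the same 3 were higher in hBMSC-CM and IFIT2 was lower, 4 members where 8.16% of all genes were called (6.11% higher and 2.05% lower). IFIT2 reached the expression limit through groups that include RPMI quizartinib, so its call gives no support to this count. PLSCR1 stood at 8.54, 9.77 and 6.8 CPM in RPMI quizartinib and 33.5, 38.5 and 27.8 CPM in hBMSC-CM quizartinib, a log2 difference of 1.99 (SE 0.23, edgeR adjusted p 1.24e-07). MX2 differed by 1.16 (SE 0.20, edgeR adjusted p 8.62e-05) and PARP9 by 0.91 (SE 0.26, edgeR adjusted p 0.0207). IFIT2 stood at 3.5, 4.32 and 2.72 CPM in RPMI and at 0.545, 1.02 and 0.0442 CPM in hBMSC-CM, a difference of -2.65 (SE 0.69, edgeR adjusted p 0.0104). The last of these cultures held 1 count, and without it (hBMSC-CM quizartinib replicate 3) IFIT2 and PARP9 were not called, which left 2 members. PARP9 was also lost without RPMI quizartinib replicate 1. The RPMI vehicle and hBMSC-CM vehicle values of IFIT2 overlapped.

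**Figure D3:**
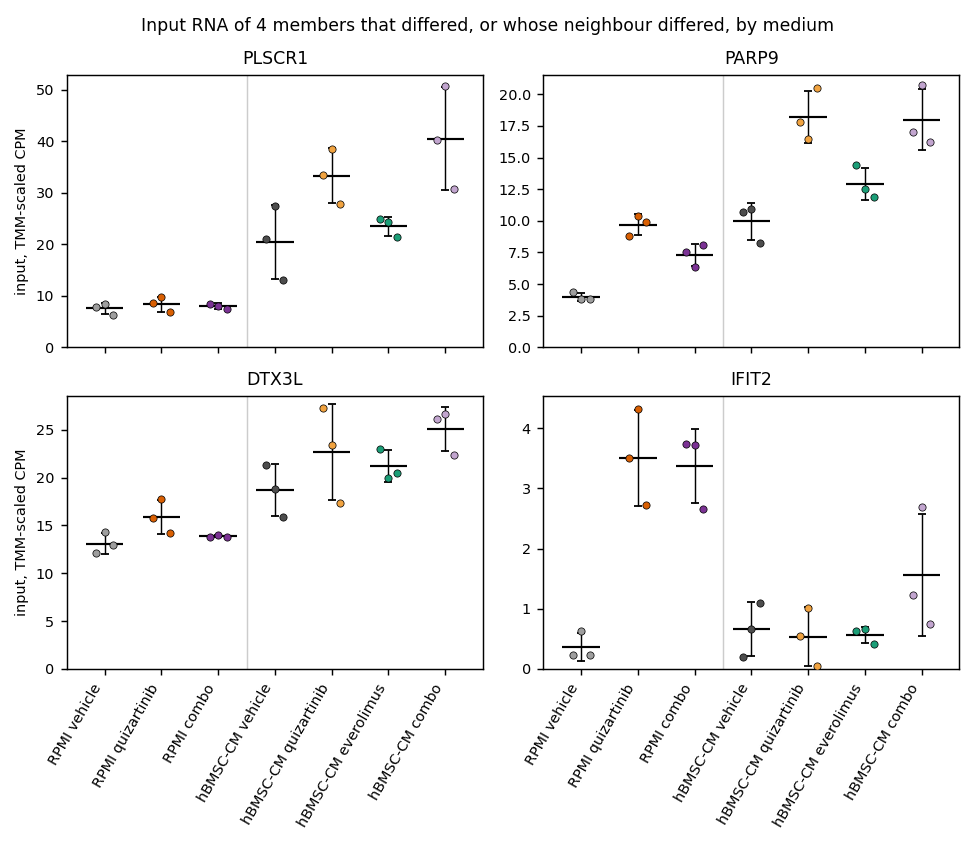
Input RNA of PLSCR1, PARP9, DTX3L and IFIT2 in TMM-scaled CPM on linear axes from 0, by condition, with the 3 cultures, the mean and the SD. PLSCR1 lies at 6.38 to 9.77 CPM in all RPMI vehicle and quizartinib cultures and at 13.1 CPM or more in hBMSC-CM, while IFIT2 is high in RPMI with quizartinib or combo.

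For everolimus no member passed the test. Added to quizartinib in RPMI it changed 0 of 29, where 0.00773% of all genes were called, and 0 had an unadjusted p under 0.05. DESeq2, limma voom and the other alternatives gave 0 as well. Added to quizartinib in hBMSC-CM it changed 0, where 0.24% of all genes were called, with 2 members at an unadjusted p under 0.05 (789 of the 12939 genes were), IRF1 (0.49, SE 0.16, edgeR adjusted p 0.285) and IFIT2 (1.49, SE 0.68, edgeR adjusted p 0.737), and 0 by DESeq2 and limma voom. IRF1 measured 37.6, 36.8 and 37.5 CPM with quizartinib and 54.3, 51.7 and 50.9 CPM with combo, which do not overlap. The groups lay apart for 2 members that were higher and 0 that were lower, where 5.8% and 8.9% of all genes were so. Everolimus alone in hBMSC-CM changed 0, where 0.41% of all genes were called, and 5 had an unadjusted p under 0.05 in edgeR (1124 of the 12939 genes did), with 0 by DESeq2 and limma voom. These were STAT2, IRF7, IRF1 and MX2, which stood higher, and BST2, which stood lower. No overlap was seen for 9 members that were higher and 1 that was lower, where 14.2% and 13.5% of all genes were so. STAT2 measured 106, 106 and 110 CPM against 53.2, 83.5 and 44.7 CPM with vehicle, a log2 change of 0.83 (SE 0.25, edgeR adjusted p 0.15). The everolimus cultures lay closer together than those of the other conditions: the SD over cultures of the log2 ratio of polysome to input had a median of 0.238 over members there, and of 0.443 to 0.639 in the other 6 conditions. The replicate numbers did not pair these cultures with vehicle (correlations of -0.0147 to -0.000365). Mitochondrial genes held 3.674, 4.081 and 4.25% of input counts with everolimus, and 7.054, 3.191 and 3.165% with vehicle in hBMSC-CM. In the replicate 1 inputs of the other 6 conditions this share was 7.054 to 10.21%. The labels do not say whether the everolimus cultures were handled separately, and such a difference cannot be told apart from the drug.

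The polysome fraction was set against the input of the same condition next. Both fractions came from the same cultures, but the main fit treated them as separate groups without a block. A fit with the culture as a block was among the alternatives, and no called member value changed its sign in any of them. A positive value means a higher TMM-scaled level in the heavy polysome libraries than in input, and not by itself a larger share of the library total. The TMM factors were 0.705 to 1.04 for polysome libraries and 1.06 to 1.24 for input libraries. The number of members called ran from 14 of 29 in RPMI quizartinib to 21 in RPMI vehicle and in hBMSC-CM combo. RPMI vehicle had 8 members higher and 13 lower, where 65.4% of all genes were called (31.5% higher and 33.9% lower). RPMI quizartinib had 8 and 6 (all genes 57.9%, with 31.2% and 26.7%), and RPMI combo 11 and 6 (all genes 59.3%, with 31.7% and 27.6%). In hBMSC-CM vehicle there were 7 and 12 (all genes 63.6%, with 29.6% and 34%) and in hBMSC-CM quizartinib 8 and 10 (all genes 58.7%, with 29.7% and 28.9%). In hBMSC-CM everolimus there were 7 and 12 (all genes 58.6%, with 27.9% and 30.7%) and in hBMSC-CM combo 12 and 9 (all genes 63%, with 32.9% and 30.1%). OASL reached the expression limit through the polysome libraries, with a mean TMM-scaled level of 0.733 CPM in input. IFIT2 reached it through the input libraries, with a mean of 1.51 CPM there. OASL was called higher in 3 conditions and IFIT2 lower in 4, and these calls give no support to the counts. The split depends on the scaling. With library totals in place of TMM factors the median of all genes moved by -0.28 to -0.55 on the log2 scale, and the members split 4 higher and 14 lower in RPMI vehicle, 5 and 9 in RPMI quizartinib, 7 and 6 in RPMI combo, 5 and 14 in hBMSC-CM vehicle, 4 and 12 in hBMSC-CM quizartinib, 5 and 12 in hBMSC-CM everolimus, and 6 and 10 in hBMSC-CM combo. Of all genes called with library totals 26% to 41.9% were higher, against 46.6% to 53.9% with TMM factors. No called member changed its sign.

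Of the 29 members tested, 4 were called higher in all 7 conditions and 6 lower in all 7. Such calls were also common among all genes, and the shares were not tested against each other. Called higher in all 7 conditions were IRF1, IRF7, ISG15 and BST2 (20.6% of all genes were), and called lower in all 7 were SAMD9, SAMD9L, DDX60, DDX58, IFIH1 and XAF1 (17.9% of all genes were). No member was called in both directions, and OAS2 and PLSCR1 were called in no condition. How many of all genes had either outcome was not counted.

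All 3 sensor genes were among those lower on polysomes. IFIH1 measured 8.06, 7.82 and 8.47 CPM in RPMI vehicle input and 0.428, 1.71 and 1.36 CPM in the polysome libraries of the same cultures, a log2 difference of -2.78 (SE 0.43, edgeR adjusted p 1.52e-06), and its difference ran from -2.78 to -1.26 over the conditions. DDX60 ran from -3.08 to -1.64 and DDX58 from -1.89 to -0.77. In each condition the polysome libraries of IFIH1 stood below every input library.

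SAMD9, SAMD9L and XAF1 were low in every condition. SAMD9 measured 17, 15.8 and 11.2 CPM in RPMI vehicle input and 0.998, 1.24 and 1.58 CPM in polysomes, a difference of -3.52 (SE 0.40, edgeR adjusted p 1.18e-08). With quizartinib in RPMI it measured 43.1, 34.7 and 25.5 against 7.64, 6.72 and 11.4 CPM, a difference of -2.0 (SE 0.36, edgeR adjusted p 1.72e-05). SAMD9L had 65, 103 and 64 counts in RPMI vehicle input and 0 counts in all 3 polysome libraries. Its TMM-scaled level there was at least 17.6-fold lower against a floor of 3 counts per library. In the other 6 conditions its log2 difference was -3.13 to -2.64. XAF1 had -3.36 (SE 0.55, edgeR adjusted p 3.74e-06) in RPMI vehicle, with 34.6, 39.8 and 43.1 CPM in input and 1.52, 2.69 and 7.25 CPM in polysomes. IFIT2 held 2 counts in the polysome libraries of RPMI vehicle, of hBMSC-CM vehicle and of hBMSC-CM everolimus, summed over 3 libraries in each case, so no fold is given there. With quizartinib in RPMI IFIT2 measured 1.08, 1.76 and 1.29 CPM in polysomes against 3.5, 4.32 and 2.72 CPM in input.

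On the other side stood the factors IRF1 and IRF7 and the small proteins ISG15 and BST2. IRF1 measured 22.4, 20.2 and 24.2 CPM in RPMI vehicle input and 79.3, 48.9 and 57.3 CPM in polysomes, a difference of 1.47 (SE 0.16, edgeR adjusted p 6.87e-09), and ran from 1.32 to 1.70 over the conditions. IRF7 ran from 1.17 to 1.70, ISG15 from 1.22 to 1.59 and BST2 from 1.18 to 1.58. BST2 measured 122, 134 and 166 CPM in RPMI vehicle input and 419, 467 and 375 CPM in polysomes, without overlap. STAT2, by contrast, ran from 0.18 to 1.04 and was called in 4 conditions, of which RPMI quizartinib, hBMSC-CM vehicle and hBMSC-CM combo were lost without replicate 1 or without replicate 3. IFI35 was called in 6 conditions, and each of these calls was lost without replicate 2.

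**Figure D4:**
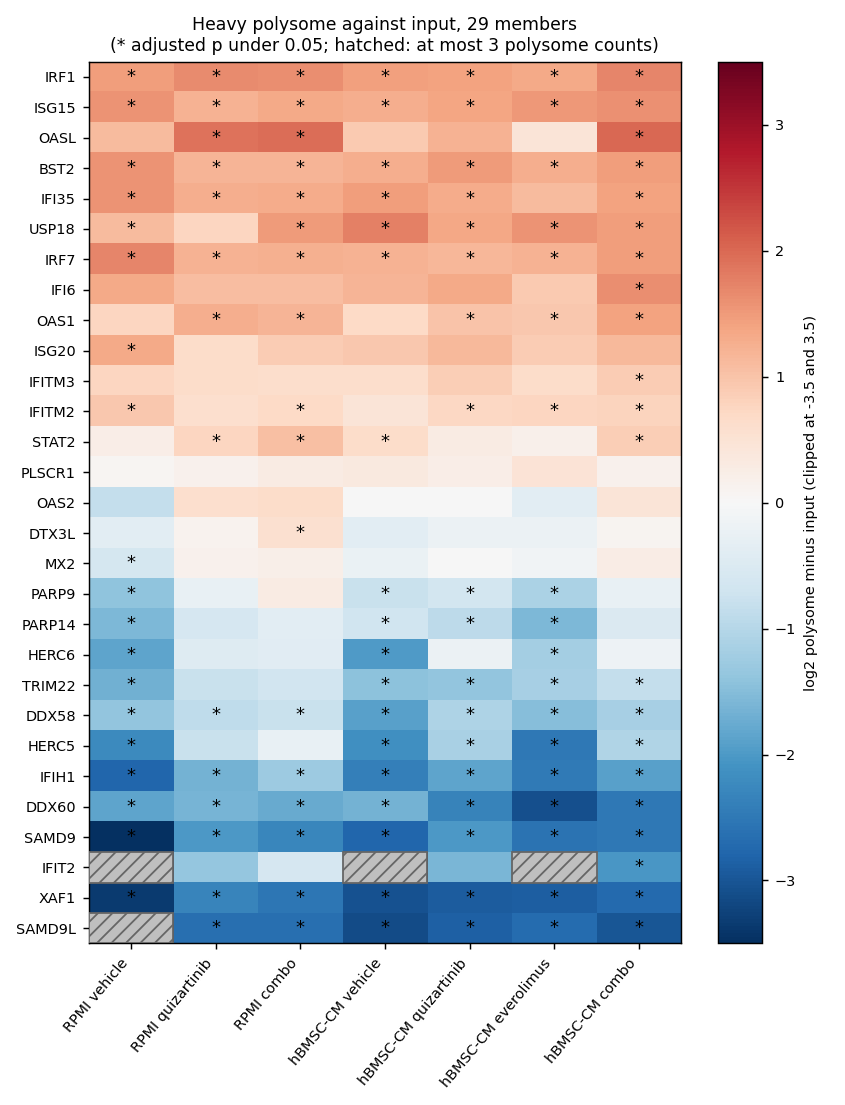
Log2 polysome minus input of the 29 tested members (rows, in order of their mean) in the 7 conditions (columns). Red is higher and blue lower on heavy polysomes, colours are clipped at -3.5 and 3.5, stars mark an edgeR adjusted p under 0.05, and hatched cells hold at most 3 polysome counts. The 4 members IRF1, IRF7, ISG15 and BST2 are starred in red across all columns and 6 members are starred in blue or hatched.

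The order of the members on this measure followed the base composition of their coding sequences. Coding GC ran from 36.5% in SAMD9 and 37.7% in SAMD9L to 65.9% in ISG15 and 67.9% in IRF7. Over the 29 members Spearman's rho of coding GC with the mean log2 polysome minus input was 0.835, leaving out the 4 values with at most 3 polysome counts, and over all 10807 genes with a coding sequence it was 0.719. Genes are not independent replicates and the points share the same libraries. The 9 members with a coding GC of at least 55% had a median of 1.32 (0.70 to 1.41), and all genes of that class had 0.987. The 12 members with a coding GC under 45% had a median of -1.32, and all genes of that class -1.19. Of these, OASL in the high class and IFIT2 in the low class reached the expression limit through the fraction where each was higher. PLSCR1 was the single member of the low class above 0. In the class between, 8 members had a median of 0.32 against -0.0981 for all genes, with XAF1 the lowest at a coding GC of 48.5%. Coding length went with the measure too, with a rho of -0.659 over members and -0.131 over all genes. The members long in coding sequence, such as SAMD9 with 4767 and DDX60 with 5136 bases, were also low in GC, so length and composition cannot be told apart within the list.

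The relation held in every culture, with a rho of 0.562 to 0.893 over members and 0.46 to 0.748 over all genes. It varied with the replicate number. The members of high GC had their highest median in replicate 2 in 6 of 7 conditions, and the lowest rho over all genes was in RPMI quizartinib replicate 3. IFI6 (coding GC 64.4%) is the clearest case. Its polysome level was highest in replicate 2 in 6 of 7 conditions, with 5.08, 34.7 and 7.51 CPM in RPMI vehicle and 27.3, 157 and 36.8 CPM in hBMSC-CM quizartinib. The exception was hBMSC-CM everolimus, with 17.5, 19.3 and 22.4 CPM. The input of IFI6 was highest in replicate 2 in 7 of 7 conditions, so these polysome levels hold an input difference as well. Its log2 ratio of polysome to input, with 0.5 CPM added to both, was 0.19, 1.89 and 0.38 in RPMI vehicle. In hBMSC-CM quizartinib this ratio was 0.05, 1.99 and 0.67. The polysome levels of ISG20, BST2 and IFI35 were highest in replicate 2 in 6 of 7 conditions as well, while those of STAT2, IRF1 and TRIM22 were lowest there in 6. In input, replicate 2 was highest in 6 conditions for IFI35, 2 for ISG20 and 0 for BST2. It was highest in 5 for STAT2, 1 for IRF1 and 6 for TRIM22. What differs between the replicate numbers was not tested. For the quizartinib change in input the rho with coding GC was 0.0793 over members in RPMI and 0.00246 in hBMSC-CM.

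**Figure D5:**
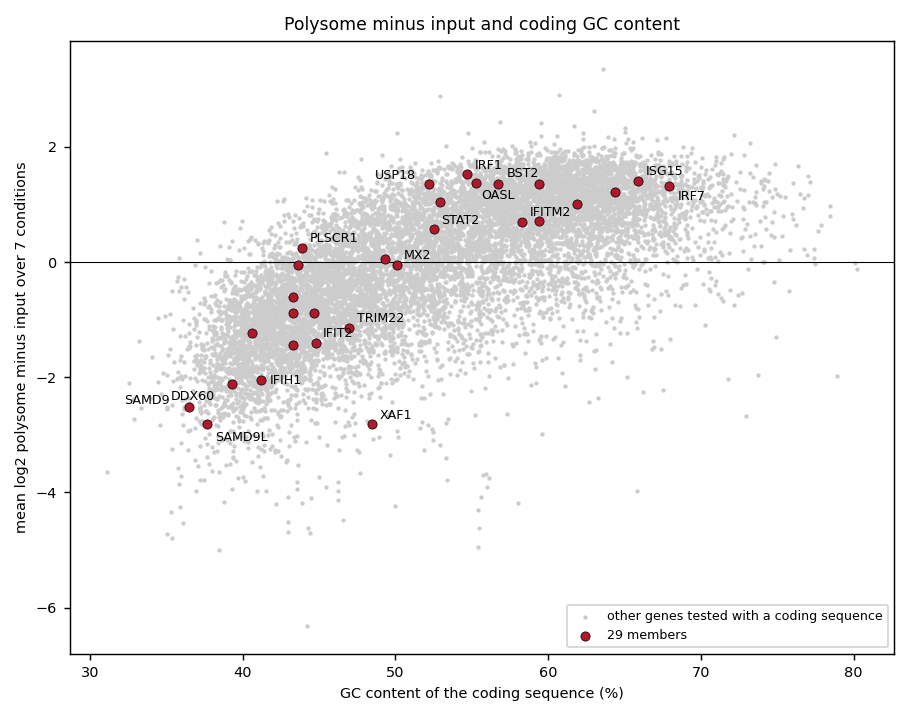
Mean log2 polysome minus input over the conditions (vertical) against the GC content of the coding sequence in % (horizontal), for the 29 tested members (red) and the other genes with a coding sequence (grey). Conditions with at most 3 polysome counts are left out for SAMD9L and IFIT2. The members lie within the grey cloud, from SAMD9L and SAMD9 at the lower left to ISG15 and IRF7 at the upper right.

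Whether treatment changed polysome minus input was tested as an interaction. For quizartinib in RPMI 0 members passed, where 1.55% of all genes did, and 7 had an unadjusted p under 0.05 in edgeR (2014 of the 12939 genes did), while DESeq2 called 1 and limma voom 0. The median of the 29 was 0.51, against 0.15 over all genes. With the replicate block, which pairs these cultures, SAMD9 (1.55, edgeR adjusted p 0.0371) and SAMD9L (edgeR adjusted p 0.0371) passed. For SAMD9L the RPMI vehicle polysome libraries held 0 counts, so no size is given and the fitted p rests on that 0. SAMD9 had 0.998 to 1.58 CPM in polysomes under vehicle and 6.72 to 11.4 CPM under quizartinib. PARP9 measured 1.24, 1.82 and 1.45 CPM in RPMI vehicle polysomes and 7.38, 6.24 and 10.6 CPM in RPMI quizartinib polysomes (interaction 1.15, SE 0.38, edgeR adjusted p 0.127). In the remaining 5 interactions 0 members and 0% of all genes passed. HERC6 for quizartinib in hBMSC-CM and SAMD9L for hBMSC-CM without drug, against the same 0 counts, were the members at an unadjusted p under 0.05 in those 5, and DESeq2 and limma voom called 0 members in each.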

How the data were processed

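Poly(A) RNA of input and heavy polysome fractions of 21 MOLM-13 cultures was sequenced as paired ends. The authors trimmed the reads, aligned them to hg38 with STAR 2.6.0a and deposited 1 table of raw counts per gene, and the use of strand in counting is not given in the sources used here. Rows that share a gene name were summed. The 12939 genes kept had a mean CPM of 1 or more over the 42 libraries and hold 99.77% of the counts. Counts were scaled by TMM and tested with edgeR 4.0.16 (R 4.3.3, quasi-likelihood, robust, 14 group means, no block), with Benjamini-Hochberg adjustment over all genes kept and a threshold of 0.05. Tests are two-sided. The procedure was tested on simulated data.

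The 43 members, the gene lists and the tests were chosen with earlier results of these data known. In each role, values by culture are given for the most abundant tested member and the called member with the largest change with quizartinib in RPMI, and up to 4 called members per direction are named in a comparison. Others were named after their values were seen.

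Cultures with 1 replicate number deviated together in input (pair correlations of 0.347 to 0.658), except for everolimus against vehicle (-0.0147 to -0.000365). For polysome minus input the numbers paired the libraries in RPMI vehicle, RPMI quizartinib and hBMSC-CM vehicle. Alternatives were limma voom (3.58.1), DESeq2 (1.42.0), RLE factors, library totals, no or a stricter filter, fewer libraries in the fit, replicate blocks and leaving out each culture. Library totals of 19.4 to 38.8 megacounts limit precision for counting error only. 1 gene of the other lists is not reported here.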

Additional observations from a re-analysis of the deposited data

How the results depend on the processing

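No called member value changed its sign in any alternative, and of the 27 calls in input 20 were kept with each culture left out in turn, as were 80 of 129 for polysome minus input. With only the libraries of the groups compared, quizartinib called 20 members in RPMI and 5 in hBMSC-CM. Without the filter, hBMSC-CM without drug called 5. With the replicate block within each fraction the counts were 18 for quizartinib in RPMI (17 higher and 1 lower), 14 in hBMSC-CM (13 higher and 1 lower), 7 for hBMSC-CM without drug, 7 under quizartinib, 1 for combo against quizartinib in hBMSC-CM and 4 for everolimus. For the difference of the quizartinib effect between media, limma voom, DESeq2 and no filter gave 1 member, the replicate block 2 and the block within each fraction 4. For the change in polysome minus input with quizartinib in RPMI, DESeq2, no filter and fewer libraries gave 1, the replicate block 2 and the block within each fraction 4. The stricter filter tested 19 members, and polysome minus input then called 13 in RPMI vehicle, 9 in RPMI combo, 12 in hBMSC-CM vehicle, 11 in hBMSC-CM quizartinib, 9 in hBMSC-CM everolimus and 10 in hBMSC-CM combo. Fewer members tested is part of how that filter works, and for the other alternatives the cause was not tested.

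Leaving out 1 culture at a time, quizartinib called 11 to 14 in RPMI and 4 to 9 in hBMSC-CM, hBMSC-CM called 3 without drug and 2 to 4 under quizartinib, everolimus called 0 to 1 (1 without hBMSC-CM vehicle replicate 2), and the difference between media 0 to 1. Polysome minus input called 18 to 19 in RPMI vehicle, 9 to 16 in RPMI quizartinib (9 without replicate 1), 11 to 15 in RPMI combo (11 without replicate 1), 15 to 18 in hBMSC-CM vehicle, 11 to 16 in hBMSC-CM quizartinib (11 without replicate 2), 15 to 18 in hBMSC-CM everolimus and 12 to 18 in hBMSC-CM combo (12 without replicate 2). IFIT2 for quizartinib in hBMSC-CM, which was not called, went from -0.25 to 0.25 without hBMSC-CM quizartinib replicate 3 and to 0.35 without hBMSC-CM vehicle replicate 3, within a range of -1.08 to 0.35. The remaining comparisons stayed at 0. Low counts limit IFIT2, OASL and the 14 members under the filter most.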
